A study of Homo sapiens with 16 samples.

Results

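Collagen genes are the 44 protein-coding genes whose symbols read COL, a number, A and a number, out of 60676 genes in the count tables. Membership went by symbol alone, but collagen genes as a group were chosen with earlier results of these data known. The 44 genes were divided by class into 11 fibrillar collagens, 6 basement membrane (type IV) collagens and 27 others, and 41 of them had enough counts to be tested among 21569 genes. COL6A5, COL23A1 and COL26A1 did not.

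Total RNA was sequenced from A101D and MeWo, human melanoma cell lines, with 8 libraries each and a kit that keeps strand, per the labels' protocols. A101D is labelled methionine dependent and MeWo methionine independent, which means that MeWo can be rescued by homocysteine in place of methionine. Cells were grown either with methionine (200 µM) or with homocysteine in its place (200 µM), and no label says which library had which. Values are given for 2 sets of libraries in each line, replicates 1 to 4 and replicates 5 to 8. These sets were proposed with results of these data known, and no label says what sets them apart. All cells are tumour cells of 1 established line each, so a difference between A101D and MeWo is a difference between 2 lines and cannot be told apart from anything else that differs between them. Nothing in the labels says that replicates were separate cultures, so p-values measure the spread between these libraries, which may be technical.

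Collagens are extracellular proteins of the triple helix, built from 3 alpha chains wound around each other, and each chain is the product of its own gene. Fibrillar collagens assemble into the tension-bearing fibrils of skin, bone, tendon and cartilage, type IV collagens form the sheet-like network of basement membranes, and the other classes coat fibrils, form beaded filaments or anchoring fibrils, or sit in the cell membrane. In skin tumours most fibrillar collagen is known to come from stromal fibroblasts, and the libraries here come from tumour cells grown without stroma.

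The libraries held 28910881 to 38961862 counts, and scaling factors lay between 0.942 and 1.08. Of 8 melanocyte lineage genes, all reached 1 CPM (1 count per 1e6 counts, on scaled library sizes) in MeWo and 7 in A101D, where TYRP1, a pigment enzyme, had a mean of 0.901 CPM. Their summed level was 2458 to 3511 CPM in A101D and 10010 to 11660 in MeWo. Since fibrillar collagen in skin tumours comes mostly from fibroblasts, 8 fibroblast markers were read beside the collagen genes. Of these, 5 reached 1 CPM in A101D (summed level 42.8 to 72.2 CPM) and 3 in MeWo (75.1 to 88.1 CPM, of which LUM had a mean of 73.9). DPT was at 0.00337 and 0.0112 CPM. None of 4 leukocyte markers reached 1 CPM in either line, while 2 of 4 endothelial and 2 of 4 epithelial markers did in A101D and 1 and 0 in MeWo. The part of these markers in the results was not tested.

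A101D had a much larger collagen transcript pool than MeWo. Their share of all counts was 0.640 ± 0.0319% in A101D against 0.174 ± 0.00725% in MeWo (SD, n = 8), a ratio of 3.68, and the lowest A101D library (0.609%) lay above the highest MeWo library (0.190%). By class, the A101D to MeWo ratio of the share was 8.96 for fibrillar, 1.82 for basement membrane and 3.47 for other collagens. Most of the fibrillar sum in A101D (2777 CPM) was in COL11A1 (mean 1203 CPM) and COL1A2 (783 CPM), both below 1 CPM in MeWo. By gene the order of classes was another. The median log2 fold change of tested genes, MeWo minus A101D, was -1.03 for fibrillar, -1.68 for basement membrane and -1.25 for other collagens. In A101D 12 genes had a mean of at least 100 CPM, 9 had 10 to 100, 11 had 1 to 10 and 12 had less than 1. In MeWo these counts were 5, 8, 9 and 22. The 13 genes at 10 CPM or more in both lines included every MeWo gene at that level, and another 8 reached it only in A101D. In bulk RNA, fewer cells that express a gene and less RNA per cell cannot be told apart.

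**Figure D1:**
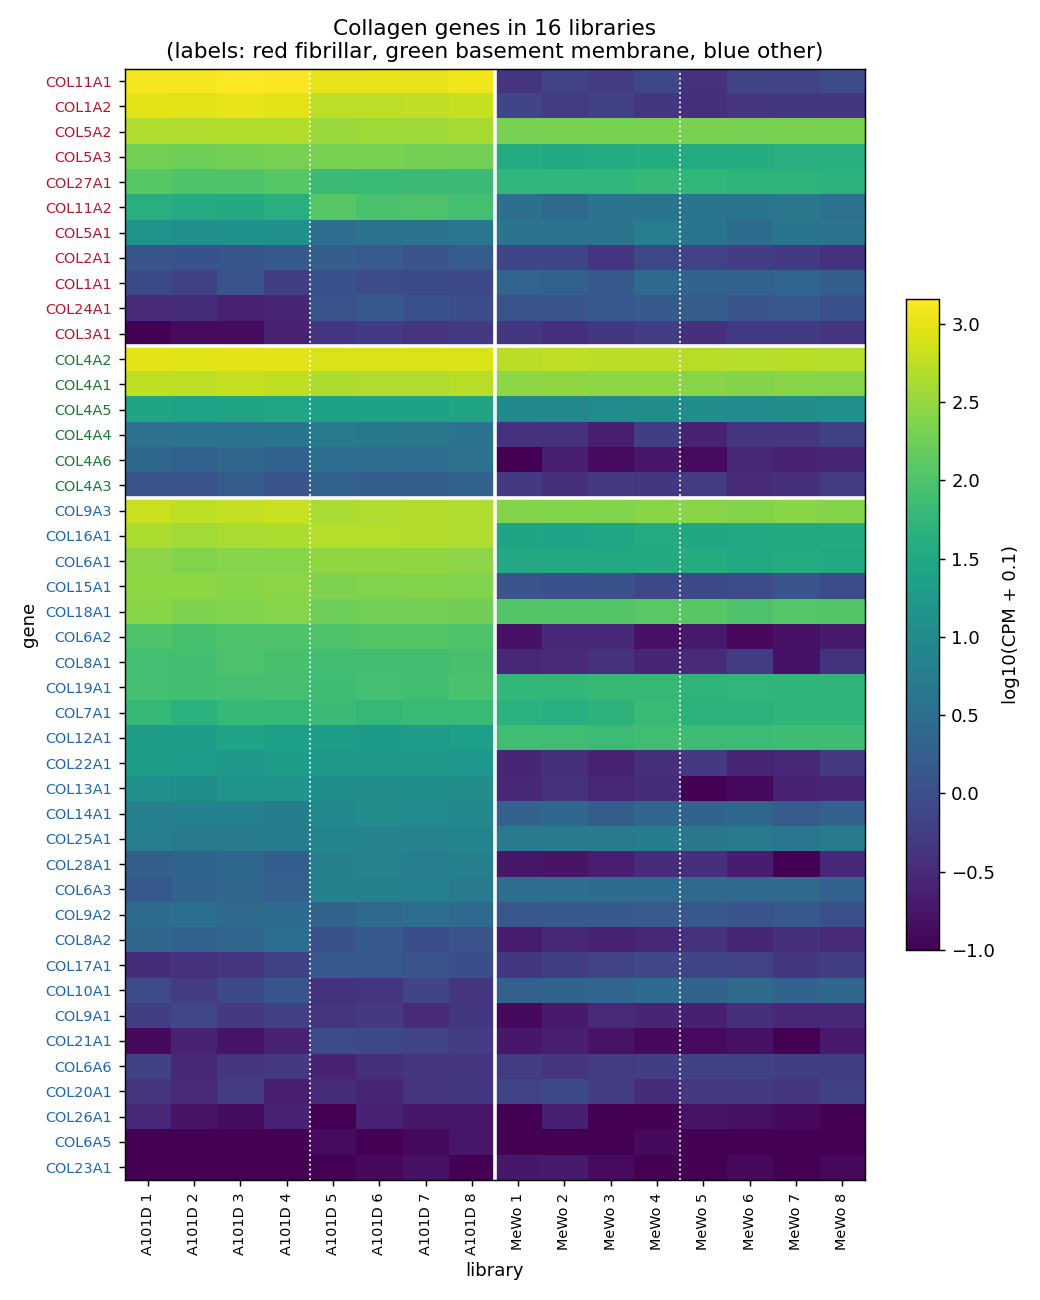
Level of each collagen gene (rows, by class and then by mean level in A101D) in each library (columns, A101D left and MeWo right of the solid line, replicates 1 to 4 and 5 to 8 split by dotted lines), as log10 of CPM plus 0.1. COL11A1, COL1A2, COL15A1, COL6A2 and COL8A1 are bright in all 8 A101D libraries and dark in all 8 MeWo libraries.

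Per kb of exon, the highest levels in A101D were those of COL11A1 (132 ± 18.6 CPM per kb, SD, n = 8), COL9A3 (112 ± 19.1) and COL1A2 (70.2 ± 19.1), followed by COL5A2, COL6A1, COL16A1 and COL4A2. Across the 8 libraries the ranges of neighbours in that order overlapped down to COL4A2, whose lowest library was above the highest of COL15A1. Within each A101D library, COL11A1 was above COL9A3, COL9A3 above COL1A2 and COL1A2 above COL5A2. In MeWo COL9A3 led (51.3 ± 2.89 CPM per kb), above the next gene in all 8 libraries, and was followed by COL5A2 (27.7 ± 0.440) and COL4A2 (27.4 ± 1.33), which overlapped, and then COL4A1 (18.6 ± 1.30) and COL18A1 (13.2 ± 0.904). COL9A3 made up 28.6% of the summed collagen level per kb in MeWo and 15.5% in A101D. This order depends on the length used. With the longest transcript's length in place of all exon bases, the order in A101D was COL9A3 (216 CPM per kb), COL11A1 (164), COL4A2 (140.4), COL1A2 (131), COL4A1 (79.4) and COL16A1 (79), so that COL5A2 and COL6A1 were no longer among the highest 6. In MeWo COL9A3 still led, and COL4A2 (81.2) and COL4A1 (41.4) both came before COL5A2 (29.2).

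Between the lines, 33 of the 41 tested genes were lower in MeWo and 7 higher, at an adjusted p under 0.05 in limma, and COL17A1 did not pass. Of all 21569 tested genes, 45.6% were lower and 41.1% higher in MeWo. The median log2 fold change, MeWo minus A101D, was -1.29 over the 41 genes and -0.05 over all tested genes. More than 2-fold lower were 24 collagen genes (23.9% of all tested genes) and more than 2-fold higher were 5 (15.9%). Every A101D library lay above every MeWo library for 27 collagen genes (30.2% of all tested genes), and the reverse held for 3 (24.3%), COL1A1, COL10A1 and COL12A1. By class, 8 fibrillar genes were lower and 3 higher, all 6 basement membrane genes were lower, and 19 of the 24 tested others were lower, 4 higher and 1 not passed.

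**Figure D2:**
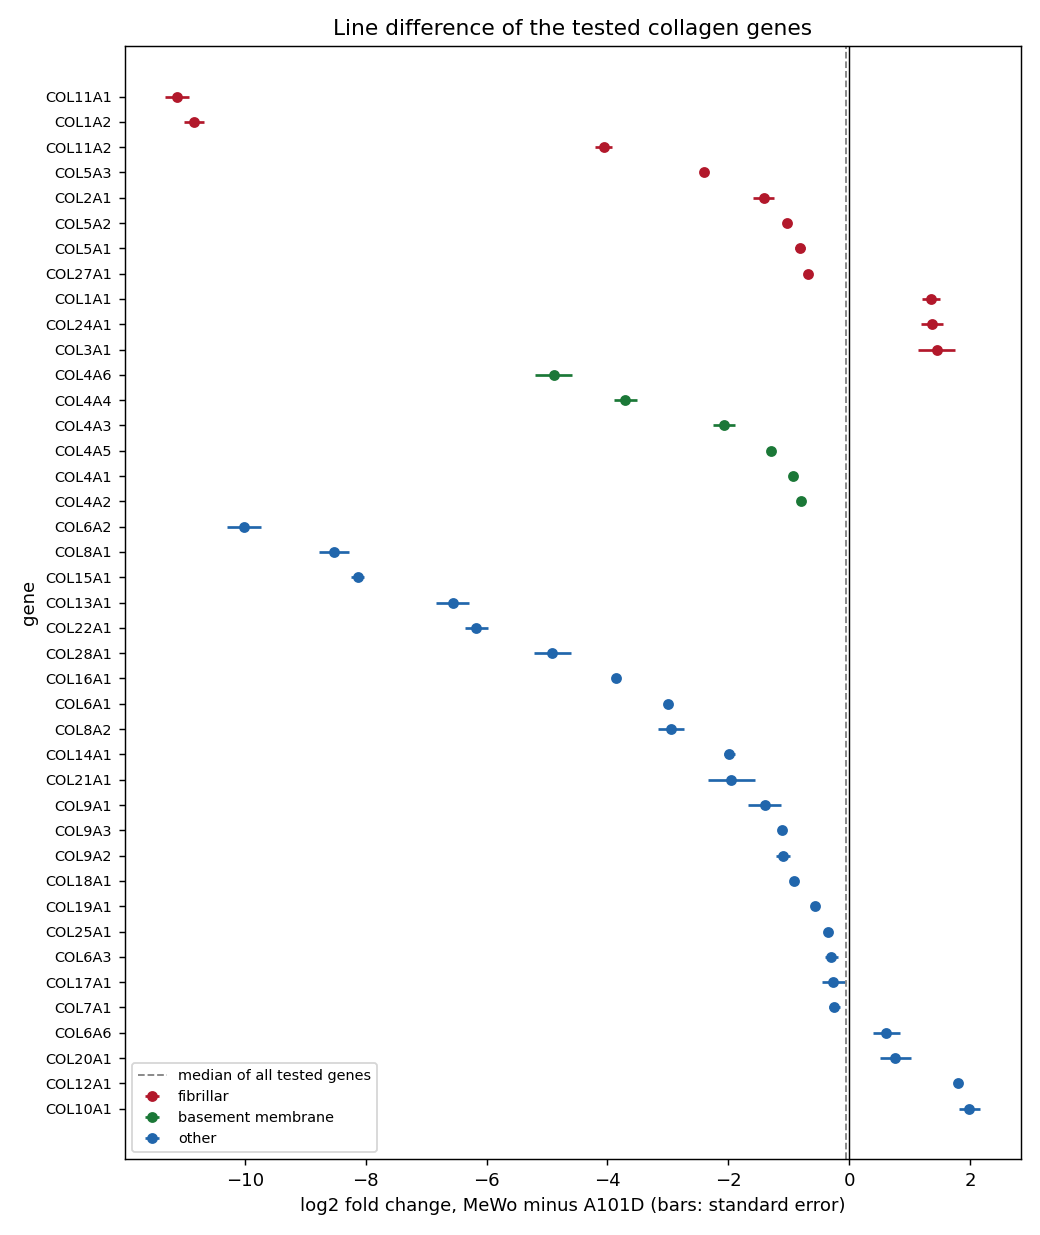
Log2 fold change of the 41 tested collagen genes, MeWo minus A101D, with standard errors, by class and then by size. Points left of 0 were lower in MeWo, and they reach from -11.12 for COL11A1 to -0.25 for COL7A1, while 7 genes lie right of 0.

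Type I collagen, the main fibril of skin and bone, is usually made of a pair of alpha 1 chains (COL1A1) and 1 alpha 2 chain (COL1A2). Its chains were not matched in A101D. COL1A2 (chr7:94394561-94431232) had 972, 927, 1049 and 969 CPM in A101D replicates 1 to 4 and 565, 565, 587 and 630.0 CPM in replicates 5 to 8. In MeWo it had 0.644, 0.421, 0.540 and 0.350 CPM in replicates 1 to 4 and 0.259, 0.332, 0.381 and 0.351 CPM in replicates 5 to 8, or 111 counts in all against 210392 in A101D. All A101D libraries were high and all MeWo libraries near the limit of detection (log2 fold change -10.85 ± 0.17, adjusted p = 1.42e-41). COL1A1 (chr17:50183289-50201632) had 0.757, 0.572, 1.09 and 0.488 CPM in A101D replicates 1 to 4, 1.02, 0.825, 0.773 and 0.728 in replicates 5 to 8, 2.14, 1.84, 1.43 and 2.54 in MeWo replicates 1 to 4 and 2.04, 1.88, 2.14 and 1.70 in replicates 5 to 8. Low in every library, it was higher in MeWo without overlap (1.35 ± 0.15, adjusted p = 3.72e-11). Per kb, COL1A2 was 1243 times COL1A1 in A101D replicates 1 to 4 and 622 times in replicates 5 to 8 (log2 ratio of COL1A1 to COL1A2 -10.28 ± 0.45 and -9.28 ± 0.27, SD, n = 4). In MeWo replicates 1 to 4 the order was the opposite, with COL1A1 at 4.64 times COL1A2 (log2 ratio 2.22 ± 0.63), from 45 to 87 and 12 to 22 counts per library.

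The cartilage chain COL2A1 and the skin and vessel wall chain COL3A1 were low in both lines. COL2A1 had 1.02, 1.32 and 1.71 CPM as lowest, median and highest library in A101D and 0.301, 0.543 and 0.701 CPM in MeWo, lower in MeWo without overlap (-1.41 ± 0.17, adjusted p = 5.28e-10). COL3A1 had 0, 0.0318, 0.0363 and 0.153 CPM in A101D replicates 1 to 4, 0.330, 0.413, 0.315 and 0.404 in replicates 5 to 8, 0.351, 0.259, 0.381 and 0.467 in MeWo replicates 1 to 4 and 0.259, 0.415, 0.410 and 0.326 in replicates 5 to 8. Only A101D replicates 1 to 4 stood below the other libraries. Its call as higher in MeWo (1.45 ± 0.31, adjusted p = 3.58e-05) averages the sets, and A101D replicates 5 to 8 overlap MeWo.

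Type V collagen chains start type I fibrils and limit their width, and type XI chains do the same for cartilage fibrils. The alpha 2 chain COL5A2 (chr2:189031896-189225312) was among the highest collagen genes of both lines, at 464, 466, 489 and 477 CPM in A101D replicates 1 to 4, 346, 372, 369 and 411 in replicates 5 to 8, 200.2, 207, 208 and 211 in MeWo replicates 1 to 4 and 207, 204, 207 and 208 in replicates 5 to 8. A101D was above MeWo in every library (-1.03 ± 0.03, adjusted p = 6.06e-33). COL5A1, the chain found in nearly all type V molecules, had 14.2, 12.2, 13.3 and 12.6 CPM in A101D replicates 1 to 4 but 3.03, 3.71, 3.95 and 4.23 in replicates 5 to 8, and 3.86, 3.95, 3.87 and 5.87 in MeWo replicates 1 to 4 and 4.12, 2.88, 3.98 and 3.76 in replicates 5 to 8. Only A101D replicates 1 to 4 were high, and the remaining A101D libraries overlapped MeWo. It was lower in MeWo (-0.81 ± 0.09, adjusted p = 1.23e-11), a call lost when the sets are not separated in the model. Per kb, COL5A2 exceeded COL5A1 by 54.5 and 152 times in the A101D sets and by 71.9 and 85 times in the MeWo sets. COL5A3 had 172, 199 and 210.3 CPM as lowest, median and highest library in A101D and 33, 36.9 and 40.9 CPM in MeWo (-2.40 ± 0.04, adjusted p = 3.25e-38).

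COL11A1 (chr1:102876467-103108872) had the highest CPM of all collagen genes in A101D and the largest line difference. It had 1286, 1251, 1448 and 1393 CPM in A101D replicates 1 to 4, 1013, 1051, 1019 and 1166 in replicates 5 to 8, 0.322, 0.583, 0.445 and 0.671 in MeWo replicates 1 to 4 and 0.292, 0.609, 0.586 and 0.827 in replicates 5 to 8 (-11.12 ± 0.20, adjusted p = 1.53e-28). All A101D libraries were high and all MeWo libraries below 1 CPM. COL11A2 (chr6:33162681-33192499) had 42.8, 36.1, 35.3 and 41.4 CPM in A101D replicates 1 to 4, 118, 93.3, 100.0 and 81.2 in replicates 5 to 8, 3.28, 2.62, 3.78 and 3.88 in MeWo replicates 1 to 4 and 4.05, 4.01, 4.36 and 3.63 in replicates 5 to 8 (-4.06 ± 0.14, adjusted p = 1.75e-13). Both chains were thus higher in A101D without overlap, by different amounts. Per kb the ratio of COL11A1 to COL11A2 was 25.7 in A101D replicates 1 to 4, 8.09 in replicates 5 to 8 and 0.108 in MeWo replicates 1 to 4, where COL11A1 had 11 to 23 counts per library.

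The 250 bases before the RefSeq start of COL11A1 are shown because this gene carries the largest line difference (chr1:103108523-103108772, minus strand, GRCh38.p14, RefSeq). The stretch lies inside the GENCODE v29 span of the gene, whose start on this strand is 103108872. Capitals mark 2 short words on either strand, the CCAAT box and the Sp1-type GC box GGGCGG. On the other strand the box of the first kind reads ATTGG, and the GC box reads CCGCCC. They do not overlap each other here.
COL11A1: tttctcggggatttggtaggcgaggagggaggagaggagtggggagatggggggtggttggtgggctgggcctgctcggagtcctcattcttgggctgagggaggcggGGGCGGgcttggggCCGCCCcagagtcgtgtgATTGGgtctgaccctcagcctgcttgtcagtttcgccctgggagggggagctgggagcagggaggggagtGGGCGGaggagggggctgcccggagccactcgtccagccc
The stretch holds 1 CCAAT box and 3 GC boxes. Of all 35116 promoter entries of that table, 32.0% hold a CCAAT box and 42.6% a GC box in the same 250 bases. Of the 32 collagen genes with an entry, 11 and 21 do in at least 1 entry. Some of these genes have several entries, so counts of genes and shares of entries are not like for like. The boxes are matches of letters and no evidence of binding.

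The other fibrillar chains, COL24A1 and COL27A1, belong to developing bone and cartilage. COL27A1 had 119, 105, 102 and 116 CPM in A101D replicates 1 to 4, 68.5, 65.5, 68.4 and 67.8 in replicates 5 to 8, 55.5, 54.1, 54.9 and 60.1 in MeWo replicates 1 to 4 and 56.5, 51.5, 51.6 and 47.8 in replicates 5 to 8, lower in MeWo without overlap (-0.68 ± 0.03, adjusted p = 4.27e-22). COL24A1 had 0.216, 0.254, 0.145 and 0.183 CPM in A101D replicates 1 to 4 and 1.11, 1.34, 1.00 and 0.863 in replicates 5 to 8, against 1.03 to 1.59 CPM in MeWo (1.37 ± 0.18, adjusted p = 3.48e-09). A101D replicates 5 to 8 overlapped MeWo and replicates 1 to 4 did not.

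**Figure D3:**
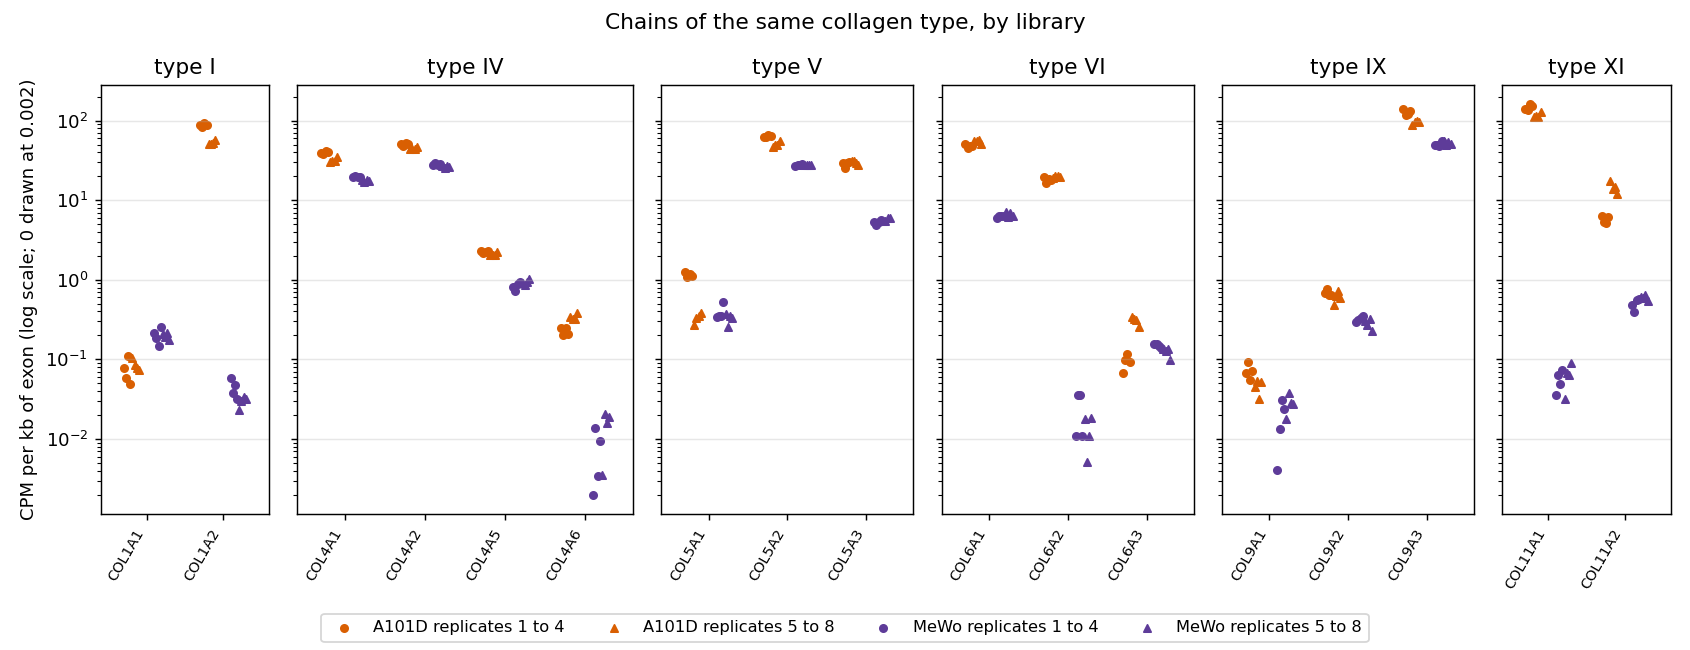
CPM per kb of exon (log axis) of the chains of types I, IV, V, VI, IX and XI, 1 point per library, circles for replicates 1 to 4 and triangles for replicates 5 to 8, with a value of 0 drawn at 0.002. In A101D COL1A2 lies far above COL1A1, and in MeWo COL6A2 lies far below COL6A1.

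Type IV collagen genes lie in 3 pairs, each head to head, and their chains form 3 kinds of molecule: the common network of COL4A1 with COL4A2, and the more restricted ones of COL4A3, COL4A4, COL4A5 and COL4A6. By RefSeq starts in GRCh38.p14, 126 bases lie between COL4A1 and COL4A2 on chromosome 13, 418 between COL4A4 and COL4A3 on chromosome 2, and 379 between COL4A6 and COL4A5 on chromosome X. COL4A1 (chr13:110148963-110307233) had 571, 563, 617 and 585 CPM in A101D replicates 1 to 4, 443, 457, 460.3 and 508 in replicates 5 to 8, 289, 299, 288 and 288 in MeWo replicates 1 to 4 and 264, 246, 263 and 255 in replicates 5 to 8 (-0.93 ± 0.03, adjusted p = 1.66e-31). COL4A2 (chr13:110305812-110513209) had 984, 913, 994 and 968, then 837, 853, 857 and 888 CPM in the A101D sets and 538, 569.9, 538 and 545, then 524, 490.1, 516 and 499.9 CPM in the MeWo sets (-0.79 ± 0.02, adjusted p = 7.21e-31). Both genes were lower in MeWo by less than 2-fold, without overlap. Their ratio per kb of exon stayed within a narrow range, from 0.663 to 0.792 over the 4 groups. With the longest transcript's length it was 0.497 to 0.594.

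The neighbours COL4A5 and COL4A6 differed far more from each other. COL4A5 (chrX:108439844-108697545) had 24.1, 26.2 and 27.6 CPM as lowest, median and highest library in A101D and 8.68, 10.7 and 12.1 CPM in MeWo (-1.29 ± 0.05, adjusted p = 1.01e-27). COL4A6 (chrX:108155607-108439497) had 2.32, 1.88, 2.29 and 1.95 CPM in A101D replicates 1 to 4, 3.12, 2.96, 3.01 and 3.53 in replicates 5 to 8 and 0 to 0.194 CPM in MeWo (-4.89 ± 0.31, adjusted p = 7.1e-19). Its summed counts were 727 in A101D and 28 in MeWo, a ratio of 25.9 (95% interval 17.8 to 39.2) from counting error alone. COL4A3 was lower in MeWo (1.53 against 0.353 CPM, -2.07 ± 0.18, adjusted p = 2.44e-14), and COL4A4 more so (4.12 against 0.322 CPM, -3.70 ± 0.19, adjusted p = 1.23e-21). No library of 1 line overlapped the other for any of the 6.

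The 250 bases before COL4A5 on the COL4A6 side are shown as the stretch that this unequal pair shares (chrX:108439588-108439837, plus strand, GRCh38.p14, RefSeq). Capitals mark CCAAT boxes on either strand.
COL4A5: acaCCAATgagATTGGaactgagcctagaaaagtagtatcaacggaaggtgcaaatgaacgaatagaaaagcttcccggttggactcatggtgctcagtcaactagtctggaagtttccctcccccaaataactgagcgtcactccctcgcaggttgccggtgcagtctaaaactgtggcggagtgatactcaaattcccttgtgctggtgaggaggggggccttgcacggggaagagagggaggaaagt
It holds 2 such boxes, 1 on each strand, and no GC box. It holds 8 CG pairs, against 38 and 40 in the same windows of COL4A1 and COL4A2 and a median of 11 over all promoter entries.

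Type VI collagen forms beaded filaments around cells, from molecules that need COL6A1, COL6A2 and another chain, most often COL6A3. Neither line had all 3 chains at a level above 10 CPM. COL6A1 (chr21:45981737-46005050) had 274, 238, 254 and 257 CPM in A101D replicates 1 to 4, 299, 297, 300.1 and 275 in replicates 5 to 8, 32, 34.2, 33.5 and 34.2 in MeWo replicates 1 to 4 and 38.1, 32.5, 36.6 and 33.9 in replicates 5 to 8 (-2.99 ± 0.03, adjusted p = 9.99e-47). COL6A2 (chr21:46098097-46132849) had 104, 89.2, 99.6 and 97.9 and 103, 108, 109 and 104 CPM in the A101D sets and 0.0585, 0.194, 0.191 and 0.0584 and 0.0973, 0.0277, 0.0585 and 0.1002 CPM in the MeWo sets (-10.02 ± 0.28, adjusted p = 6.89e-32). Both were high in all A101D libraries, but only COL6A1 was present in MeWo above 1 CPM. COL6A2 had 26 counts in the 8 MeWo libraries and 27915 in A101D, a ratio of 1070.0 (95% interval 729.9 to 1638). COL6A3 (chr2:237324003-237414375) had 1.32, 1.94, 2.29 and 1.80 and 6.70, 6.34, 6.16 and 5.07 CPM in the A101D sets and 3.10, 3.08, 2.89 and 2.74 and 2.66, 2.52, 2.69 and 1.95 CPM in the MeWo sets. The MeWo means lay between those of the A101D sets, and MeWo libraries overlapped A101D replicates 1 to 4. Its call as lower (-0.29 ± 0.10, adjusted p = 0.00728) was lost when the sets were not separated. Per kb, COL6A1 was 521 and 178 times COL6A3 in the A101D sets and 41.7 and 53.1 times in the MeWo sets. COL6A6 stayed below 1 CPM in every library (0.61 ± 0.22, adjusted p = 0.00973), and COL6A5 had 5 counts in A101D and 1 in MeWo.

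The stretch before COL6A2 is shown because this gene was near 0 in MeWo beside its expressed partner COL6A1 (chr21:46097862-46098096, plus strand, GRCh38.p14, RefSeq, without 15 bases that a GENCODE v29 exon covers). Capitals mark GC boxes on either strand and the TATA box, searched on both strands as TATAAA.
COL6A2: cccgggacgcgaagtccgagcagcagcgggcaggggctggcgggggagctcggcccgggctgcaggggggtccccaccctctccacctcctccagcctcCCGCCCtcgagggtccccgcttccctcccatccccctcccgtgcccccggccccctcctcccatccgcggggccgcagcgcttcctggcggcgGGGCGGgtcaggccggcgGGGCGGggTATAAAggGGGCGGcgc
It holds 4 GC boxes and 1 TATA box, and no CCAAT box. A TATA box stands in 10.7% of all promoter entries. Of the 32 collagen genes with an entry, 7 have it in at least 1 entry, a count of genes that is not like the share of entries.

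Type IX collagen sits on cartilage fibrils as a trimer of COL9A1, COL9A2 and COL9A3. COL9A3 (chr20:62816244-62841159) was high in both lines, at 671, 573, 593 and 644 and 424, 470.1, 473 and 468 CPM in the A101D sets and 237, 238, 233 and 264 and 268, 239, 261 and 247 CPM in the MeWo sets, without overlap (-1.10 ± 0.03, adjusted p = 1.03e-24). COL9A2 had only 2.04 to 3.21 CPM in A101D and 0.952 to 1.49 in MeWo (-1.10 ± 0.11, adjusted p = 4.55e-12), and COL9A1 had 0.229 to 0.667 and 0.0293 to 0.277 CPM (-1.40 ± 0.27, adjusted p = 1.16e-05). Per kb COL9A3 exceeded COL9A2 by 155 to 188 times over the 4 groups, while COL9A3 was 2.15 times and COL9A2 2.14 times higher in A101D.

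Among the remaining fibril-associated collagens, which link fibrils to their surroundings, COL16A1 and COL12A1 moved in opposite directions. COL16A1 (chr1:31652247-31704319) had 448, 385, 423 and 453 and 492, 490.3, 474 and 462 CPM in the A101D sets and 27.2, 25.6, 28.2 and 36 and 30.9, 32.5, 34.9 and 34.7 CPM in the MeWo sets (-3.86 ± 0.05, adjusted p = 1.38e-26). COL12A1 (chr6:75084326-75206051), a chain of dense connective tissue, had 21.1, 21.4, 26.4 and 22.2 and 21.2, 18.6, 19.1 and 21.9 CPM in the A101D sets and 77.7, 76.1, 71.4 and 76.3 and 71.3, 72, 73.5 and 74.9 CPM in the MeWo sets (1.80 ± 0.04, adjusted p = 3.79e-36). It was the only collagen gene above 10 CPM that was higher in MeWo. COL14A1, its near relative, went the other way (8.10 against 2.01 CPM, -1.98 ± 0.09, adjusted p = 1.53e-23). COL22A1, a chain of tissue junctions such as that of muscle and tendon, had 20.6, 18.9, 17.6 and 20.4 and 16.8, 17.4, 17.6 and 16.7 CPM in the A101D sets and 0.159 to 0.401 CPM in MeWo (-6.17 ± 0.19, adjusted p = 2.65e-30). COL19A1, a chain of basement membrane zones, had 82.1, 80.9, 86.9 and 86.7 and 74.7, 81.2, 78.1 and 90.7 CPM in the A101D sets and 57, 57.7, 60.4 and 59.6 and 51.1, 54.3, 52.6 and 52.9 CPM in the MeWo sets (-0.57 ± 0.03, adjusted p = 3.37e-20). COL20A1 stayed below 1 CPM throughout, at 0.122 to 0.436 CPM in A101D and 0.234 to 0.745 in MeWo (0.76 ± 0.25, adjusted p = 0.00549).

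The multiplexins COL15A1 and COL18A1 lie beside basement membranes, and COL18A1 yields the fragment endostatin. COL15A1 (chr9:98943179-99070792) had 287, 279.9, 259 and 274 and 223, 239.5, 243 and 235 CPM in the A101D sets and 1.14, 1.00, 0.985 and 0.701 and 0.713, 0.831, 1.08 and 0.776 CPM in the MeWo sets (-8.14 ± 0.11, adjusted p = 2.05e-43). COL18A1 had 265, 228, 237 and 254 and 173, 189, 186 and 184 CPM in the A101D sets and 110.5, 112, 112 and 125 and 119, 100.1, 118 and 106 CPM in the MeWo sets (-0.91 ± 0.04, adjusted p = 1.1e-22). A101D was above MeWo in all libraries for both, by a factor of 281 for COL15A1 and 1.88 for COL18A1. Genes on the opposite strand cover 16.4% of the exon bases of COL18A1, and the strand setting of the counting is not known.

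The network-forming COL8A1 of vessel walls and the cornea had 83.4, 80.6, 99.8 and 89.8 and 80.2, 80.4, 80.1 and 87.7 CPM in the A101D sets and 0.0585 to 0.443 CPM in MeWo, or 23152 against 66 counts (-8.52 ± 0.25, adjusted p = 1.54e-26). Its partner COL8A2 was low, at 2.24, 1.94, 2.22 and 3.27 and 0.991, 1.39, 0.916 and 1.05 CPM in the A101D sets and 0.117 to 0.292 CPM in MeWo (-2.95 ± 0.22, adjusted p = 3.87e-16). COL10A1, the chain of hypertrophic cartilage, was higher in MeWo, with 0.3003 to 1.13 CPM in A101D and 1.81 to 2.77 in MeWo (1.99 ± 0.17, adjusted p = 2.09e-14). COL7A1, the anchoring fibril of the skin's basement membrane, overlapped between the lines at 45.3, 59.4 and 68.1 CPM (lowest, median, highest) in A101D and 40.5, 47.8 and 66.2 CPM in MeWo. Its call as lower in MeWo was narrow (-0.25 ± 0.09, adjusted p = 0.0247) and is lost at a threshold of 0.01.

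Of the membrane-spanning collagens, COL13A1, known from the neuromuscular junction, had 12.6, 11.7, 14.1 and 14.8 and 11.9, 11, 11.7 and 11.4 CPM in the A101D sets and 0.205, 0.291, 0.191 and 0.234 and 0, 0.0277, 0.146 and 0.175 CPM in the MeWo sets (-6.56 ± 0.28, adjusted p = 4.46e-25). COL25A1 differed little, at 4.89 to 7.47 CPM in A101D and 4.22 to 5.49 in MeWo (-0.35 ± 0.07, adjusted p = 5.51e-06). COL17A1, the hemidesmosome collagen of the epidermis, was the only tested gene that did not pass (-0.26 ± 0.19, adjusted p = 0.21), with 0.243, 0.286, 0.327 and 0.549 CPM in A101D replicates 1 to 4, 1.29, 1.37, 1.15 and 0.890 in replicates 5 to 8 and 0.380 to 0.671 in MeWo. COL28A1 had 1.70, 2.07, 2.33 and 1.65 and 6.28, 6.83, 6.01 and 6.33 CPM in the A101D sets against 0 to 0.259 CPM in MeWo (-4.91 ± 0.31, adjusted p = 9.8e-18). COL23A1 had 3 counts in A101D and 9 in MeWo, and COL26A1 had 27 and 9.

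The sets of A101D differed in many collagen genes, and those of MeWo in few. In A101D 14 of 41 genes were higher in replicates 5 to 8, 16 were lower and 11 did not pass. Of all tested genes, 29.6% were higher and 35.8% lower, so the collagen shares lie near those of all genes. In MeWo no collagen gene was higher in replicates 5 to 8 (4.59% of all tested genes were), and 4 were lower (8.51%): COL4A1, COL4A2, COL13A1 and COL19A1. The contrasts between sets and the line contrast share libraries. A101D replicates 1 to 4 had scaling factors of 0.942 to 0.958 and replicates 5 to 8 of 1.05 to 1.08, and a biological and a technical difference between the sets cannot be told apart from the labels.

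Markers of other cell types differed between the A101D sets. The shares of all tested genes in this contrast were 29.6% higher and 35.8% lower. With few markers in each list, the counts were not tested against these shares. All 4 endothelial markers were higher in replicates 5 to 8, with a summed level of 6.14 to 7.33 CPM in replicates 1 to 4 and 25.1 to 31.8 CPM in replicates 5 to 8. Of these, VWF, a clotting glycoprotein, went from a mean of 3.80 to 15.6 CPM (2.03 ± 0.11, adjusted p = 5.78e-21) and TEK, the angiopoietin receptor, from 2.38 to 11.7 CPM (2.28 ± 0.12, adjusted p = 1.96e-20). Both tested epithelial markers of 4, KRT8 (1.25 ± 0.08, adjusted p = 1.29e-18) and CDH1 (1.20 ± 0.20, adjusted p = 7.34e-07), were also higher, and that list's summed level was 9.80 to 11.7 and 22.4 to 27.8 CPM. Of 7 tested fibroblast markers 4 were higher (PDGFRA, THY1, DCN and LUM) and 3 lower (PDGFRB, FAP and ACTA2). Their list's summed level was 68.3 to 72.2 and 42.8 to 48.7 CPM. Most of that fall was in ACTA2, smooth muscle actin, which went from 31.8 to 10.9 CPM (-1.55 ± 0.07, adjusted p = 1.43e-23). None of the 4 higher markers had a mean above 2.05 CPM in either A101D set. DPT had no count in replicates 1 to 4. Of 8 melanocyte lineage genes 2 were higher and 5 lower, with a summed level of 2931 to 3511 and 2458 to 2690.0 CPM. The 4 leukocyte markers summed to 0.0916 to 0.254 and 0.296 to 0.573 CPM. In the MeWo sets 1 fibroblast marker and 1 melanocyte lineage gene were higher (4.59% of all tested genes). No tested marker was lower (8.51%).

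**Figure D4:**
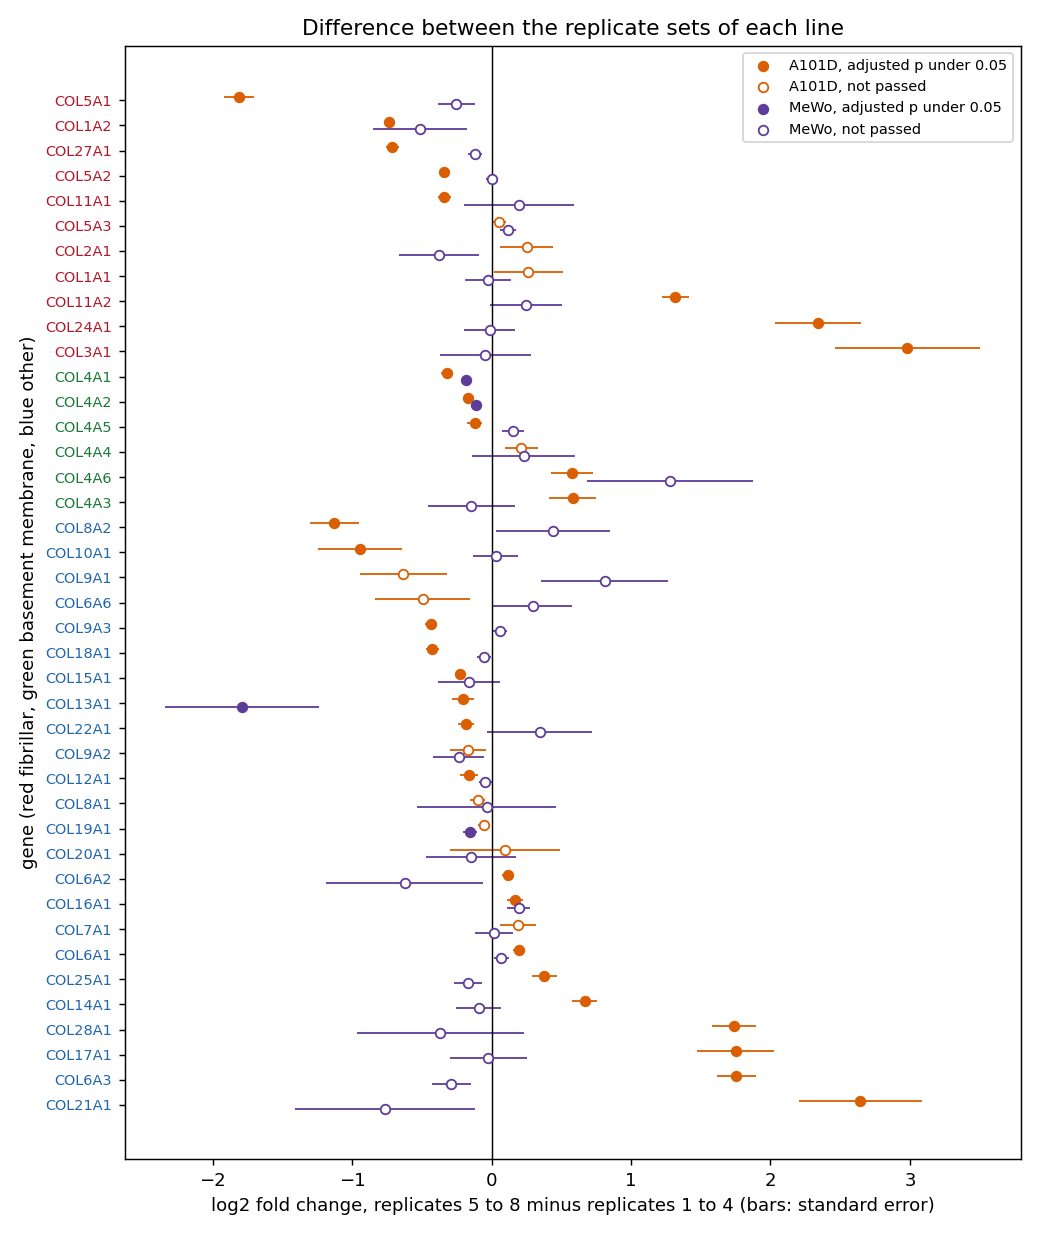
Log2 fold change of the 41 tested collagen genes, replicates 5 to 8 minus 1 to 4, with standard errors, for A101D and MeWo. Filled points passed an adjusted p of 0.05, which 30 A101D and 4 MeWo points did, and A101D spans from -1.81 for COL5A1 to 2.98 for COL3A1.

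In A101D the direction differed within classes. Lower in replicates 5 to 8 were COL5A1 (-1.81 ± 0.11, adjusted p = 1.2e-18), the lowest, COL1A2 (-0.74 ± 0.04, adjusted p = 4.65e-22), COL27A1 (-0.71 ± 0.05, adjusted p = 2.26e-17), COL5A2 (-0.34 ± 0.04, adjusted p = 5.21e-11) and COL11A1 (-0.34 ± 0.05, adjusted p = 1.43e-07) among the fibrillar genes. Higher were COL11A2 (1.32 ± 0.10, adjusted p = 1.01e-08), COL24A1 (2.34 ± 0.31, adjusted p = 8.75e-09) and COL3A1 (2.98 ± 0.52, adjusted p = 2.65e-06). None of these 8 overlapped between the sets, as the values given for each gene show. COL11A1 and COL11A2, chains of the same molecule, thus moved in opposite directions. Most of the fibrillar counts were in genes that fell: their summed level was 3156 ± 158 CPM in replicates 1 to 4 and 2397 ± 102 CPM in replicates 5 to 8 (SD, n = 4).

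Among the basement membrane genes of A101D, COL4A1 (-0.32 ± 0.04, adjusted p = 1.97e-10) and COL4A2 (-0.17 ± 0.03, adjusted p = 1.62e-05) fell and COL4A3 (0.58 ± 0.17, adjusted p = 0.0025) and COL4A6 (0.58 ± 0.15, adjusted p = 0.000773) rose. COL4A2 was no longer called with upper-quartile factors or total counts. COL4A5 passed narrowly (-0.12 ± 0.05, adjusted p = 0.0464) and changed sign to 0.02 with upper-quartile factors and 0.04 with total counts.

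Of the other collagens in A101D, COL21A1, a chain of the vessel wall, rose most, from 0.0270, 0.159, 0.0727 and 0.153 CPM to 0.781, 0.696, 0.601 and 0.431 CPM (2.64 ± 0.44, adjusted p = 1.26e-06). COL6A3 (1.76 ± 0.14, adjusted p = 9.94e-15), COL17A1 (1.75 ± 0.27, adjusted p = 3.52e-07) and COL28A1 (1.74 ± 0.16, adjusted p = 1.28e-12) rose by a similar amount, each without overlap. COL14A1 rose from 6.19, 6.71, 6.68 and 5.52 CPM to 9.73, 10.8, 10.1 and 9.08 CPM (0.67 ± 0.09, adjusted p = 1.43e-08), and COL25A1 (0.38 ± 0.09, adjusted p = 0.000254), COL6A1 (0.19 ± 0.04, adjusted p = 4.75e-05), COL16A1 (0.17 ± 0.06, adjusted p = 0.0121) and COL6A2 (0.12 ± 0.04, adjusted p = 0.0156) rose less. COL8A2 (-1.13 ± 0.18, adjusted p = 3.21e-07) and COL10A1 (-0.94 ± 0.30, adjusted p = 0.00575) fell most.

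COL9A3 (-0.43 ± 0.05, adjusted p = 5.29e-10), COL18A1 (-0.42 ± 0.05, adjusted p = 1.65e-09) and COL15A1 (-0.23 ± 0.04, adjusted p = 1.05e-06) fell in A101D replicates 5 to 8 without overlap. COL12A1, COL13A1 and COL22A1 fell by 0.16 to 0.20 on the log2 scale, and these 3 calls are lost with median-of-ratios factors, upper-quartile factors or total counts. COL12A1, COL13A1 and COL4A5 are also lost when some single libraries are left out, and COL6A2 without A101D replicate 7. With limma-trend in place of voom weights the calls of COL4A5, COL4A6, COL6A2, COL11A1, COL13A1, COL15A1, COL16A1 and COL22A1 are lost. COL15A1 is also lost with total counts, a scaling that moved the median of all tested genes from -0.05 to 0.11.

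In MeWo, COL4A1 (-0.18 ± 0.04, adjusted p = 0.00112), COL4A2 (-0.11 ± 0.03, adjusted p = 0.023), COL19A1 (-0.15 ± 0.05, adjusted p = 0.0249) and COL13A1 (-1.79 ± 0.55, adjusted p = 0.0237) fell, each without overlap between the sets. COL13A1 rests on 30 counts in replicates 1 to 4 and 13 in replicates 5 to 8. The count of 4 falls to 2 without MeWo replicate 2, 6 or 8, and to 0 without a filter on low counts. COL4A1 remained in the fits without each library.

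The set difference itself differed between the lines for 20 of the 41 genes (48.5% of all tested genes), 10 in each direction. The largest were COL21A1 (MeWo minus A101D -3.40 ± 0.78, adjusted p = 0.000305), COL3A1 (-3.03 ± 0.61, adjusted p = 5.51e-05), COL24A1 (-2.35 ± 0.36, adjusted p = 4.04e-07), COL28A1 (-2.11 ± 0.62, adjusted p = 0.0045), COL6A3 (-2.04 ± 0.20, adjusted p = 1.09e-11) and COL17A1 (-1.77 ± 0.39, adjusted p = 0.000172). In the positive direction COL8A2 (1.56 ± 0.45, adjusted p = 0.00312) and COL5A1 (1.56 ± 0.17, adjusted p = 2.29e-10) led. Some of the largest rest on few counts. COL21A1 had 13 counts in A101D replicates 1 to 4 and 10 and 7 in the MeWo sets. COL3A1 had 7 counts in A101D replicates 1 to 4, and COL28A1 had 17 and 20 in the MeWo sets. COL21A1, COL3A1 and COL17A1 were not tested with a filter at 1 CPM in 4 libraries. With median-of-ratios factors, upper-quartile factors or total counts, COL4A1 and COL4A5 left these 20 genes and COL6A1 and COL19A1 joined them. For COL1A2 and COL11A1, near 0 in MeWo, no difference passed, with 0.22 ± 0.34, adjusted p = 0.619 and 0.53 ± 0.40, adjusted p = 0.284. For COL4A2 the set difference was small in both lines and its difference between them was 0.06 ± 0.05, adjusted p = 0.341.

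Collagen chains are hydroxylated, glycosylated and folded in the endoplasmic reticulum, exported in large carriers, trimmed of their propeptides and cross-linked outside the cell. Of 75 genes listed for these steps, for collagen receptors, for degradation and for fibril partners, 65 were tested, and 21 were higher and 41 lower in MeWo, beside 41.1% and 45.6% of all tested genes. In the A101D sets 17 were higher and 32 lower in replicates 5 to 8, beside 29.6% and 35.8% of all tested genes. In the MeWo sets 4 were higher and 14 lower, beside 4.59% and 8.51%. The counts for each list are descriptions beside these shares, with no test against them.

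Of 18 chain modification and chaperone genes, 13 were lower and 5 higher in MeWo (45.6% and 41.1% of all tested genes). PLOD3, a lysyl hydroxylase and glucosyltransferase, was the most abundant in A101D (1096 ± 24.6 against 477 ± 15.6 CPM, SD, n = 8, log2 fold change -1.20 ± 0.02, adjusted p = 4.57e-38), while in MeWo PLOD1, another lysyl hydroxylase, was above it (651 ± 41.5 CPM), every PLOD1 library above every PLOD3 library. The prolyl 3-hydroxylase genes P3H3 (40.8 ± 15.2 against 0.250 ± 0.0861 CPM, -7.24 ± 0.19, adjusted p = 6.15e-33) and P3H2 (76.9 ± 2.71 against 1.78 ± 0.269 CPM, -5.44 ± 0.08, adjusted p = 9.16e-42) differed most. P3H3 fell by 1.04 on the log2 scale in A101D replicates 5 to 8 (adjusted p = 1.35e-22). In the same contrast 12 of the 18 were lower and 1 higher (35.8% and 29.6% of all tested genes). FKBP14, a prolyl isomerase of the endoplasmic reticulum, was the only one called in the MeWo sets (-0.16 ± 0.05, adjusted p = 0.0265).

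Of 9 export genes, 4 were higher and 2 lower in MeWo (41.1% and 45.6% of all tested genes), and 7 were lower and 1 higher in A101D replicates 5 to 8 (35.8% and 29.6%). SEC23A and SEC24D, coat proteins of the vesicles that leave the endoplasmic reticulum, were both lower in A101D replicates 5 to 8. SEC23A went from 187, 209.7, 213 and 200.5 CPM in replicates 1 to 4 to 89.3, 93.6, 97.7 and 107 CPM in replicates 5 to 8 (-1.06 ± 0.05, adjusted p = 2.23e-22). SEC24D fell from a mean of 104 to 52.9 CPM (-0.98 ± 0.05, adjusted p = 6.8e-22), and so did MIA3, the cargo receptor TANGO1 (-0.63 ± 0.04, adjusted p = 5.38e-17). In MeWo 5 of the 9 were lower and 1 higher in replicates 5 to 8 (8.51% and 4.59% of all tested genes), and SEC24D had the largest change (-0.21 ± 0.05, adjusted p = 0.00214). TMEM38B, an ion channel of the endoplasmic reticulum, was higher in MeWo (0.56 ± 0.04, adjusted p = 3.87e-17), and SEC13, the most abundant, differed by 0.14 ± 0.03, adjusted p = 2.73e-06.

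Of 7 tested propeptide processing genes, 5 were lower and 2 higher in MeWo (45.6% and 41.1% of all tested genes). PCOLCE, which speeds up C-propeptide cleavage, had 77.8 ± 4.56 CPM in A101D and 4.62 ± 0.3996 in MeWo (-4.07 ± 0.06, adjusted p = 1.43e-43), and the N-propeptidase ADAMTS3 differed by -2.64 ± 0.08, adjusted p = 3.56e-30. BMP1, the C-propeptidase, had 52.1 ± 1.74 and 46 ± 2.84 CPM (-0.18 ± 0.03, adjusted p = 2.35e-06). PCOLCE2 fell in A101D replicates 5 to 8 (-0.87 ± 0.06, adjusted p = 1.3e-17).

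Of 6 tested cross-linking genes, 5 were lower and 1 higher in MeWo (45.6% and 41.1% of all tested genes). The lysyl oxidase LOXL2 had 155, 188 and 235 CPM (lowest, median, highest) in A101D and 1.39, 1.87 and 2.01 in MeWo (-6.69 ± 0.08, adjusted p = 1.5e-45), and LOXL3 differed by -3.05 ± 0.03, adjusted p = 5.22e-50. LOX was the exception, at 10.04 ± 3.39 against 10.3 ± 0.726 CPM, and its libraries overlapped between the lines. Its call as higher in MeWo was narrow (0.12 ± 0.06, adjusted p = 0.048). It is lost with median-of-ratios factors (adjusted p = 0.0519), total counts, limma-trend, no filter on low counts, no set term, the replicate number as a block or a threshold of 0.01, and without A101D replicate 1, 4, 6, 7 or 8 or MeWo replicate 2, 3, 6, 7 or 8. LOX rose in A101D replicates 5 to 8 (0.95 ± 0.08, adjusted p = 1.13e-13) while LOXL3 fell in A101D (-0.47 ± 0.03, adjusted p = 5.37e-16) and in MeWo (-0.20 ± 0.04, adjusted p = 0.00127).

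Of 8 tested receptor and uptake genes, 6 were lower and 2 higher in MeWo (45.6% and 41.1% of all tested genes). ITGB1, the beta chain of the collagen-binding integrins, was slightly higher (0.30 ± 0.02, adjusted p = 6.88e-15), while the collagen-binding alpha chain ITGA2 was lower (-2.15 ± 0.04, adjusted p = 7.43e-40). MRC2, an endocytic collagen receptor, had 2.91 ± 0.418 CPM in A101D and 41.3 ± 5.93 in MeWo (3.82 ± 0.08, adjusted p = 1.25e-36), and fell in MeWo replicates 5 to 8 (-0.33 ± 0.05, adjusted p = 3.47e-05). DDR1, a receptor tyrosine kinase for collagen, rose in A101D replicates 5 to 8 (0.77 ± 0.04, adjusted p = 7.52e-22).

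Of 8 tested degradation genes, 5 were lower and 3 higher in MeWo (45.6% and 41.1% of all tested genes). The collagenase MMP1 had 55.2, 62.5, 77.4 and 61.1 and 137, 130.1, 137 and 136 CPM in the A101D sets and 0.445 to 1.02 in MeWo (-6.94 ± 0.17, adjusted p = 3.58e-24), and rose in A101D replicates 5 to 8 (1.09 ± 0.06, adjusted p = 1.96e-15). The inhibitor TIMP3 had 8094 ± 263 and 1016 ± 77.6 CPM (-3.00 ± 0.02, adjusted p = 1.08e-52).

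Of 9 tested fibril and matrix partners, 5 were lower and 4 higher in MeWo (45.6% and 41.1% of all tested genes). THBS1 (-2.05 ± 0.06, adjusted p = 6.22e-13) and FN1 (-2.78 ± 0.02, adjusted p = 4.52e-51), adhesive glycoproteins, were lower, while the fibril-coating proteoglycan LUM was higher (1.69 ± 0.490 against 73.9 ± 3.79 CPM, 5.48 ± 0.10, adjusted p = 9.68e-40). HSPG2, the basement membrane proteoglycan perlecan, was higher in MeWo (0.94 ± 0.03, adjusted p = 1.28e-24) and fell in A101D replicates 5 to 8 (-0.96 ± 0.05, adjusted p = 2.57e-19). LUM is also one of the fibroblast markers read beside the collagens.

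**Figure D5:**
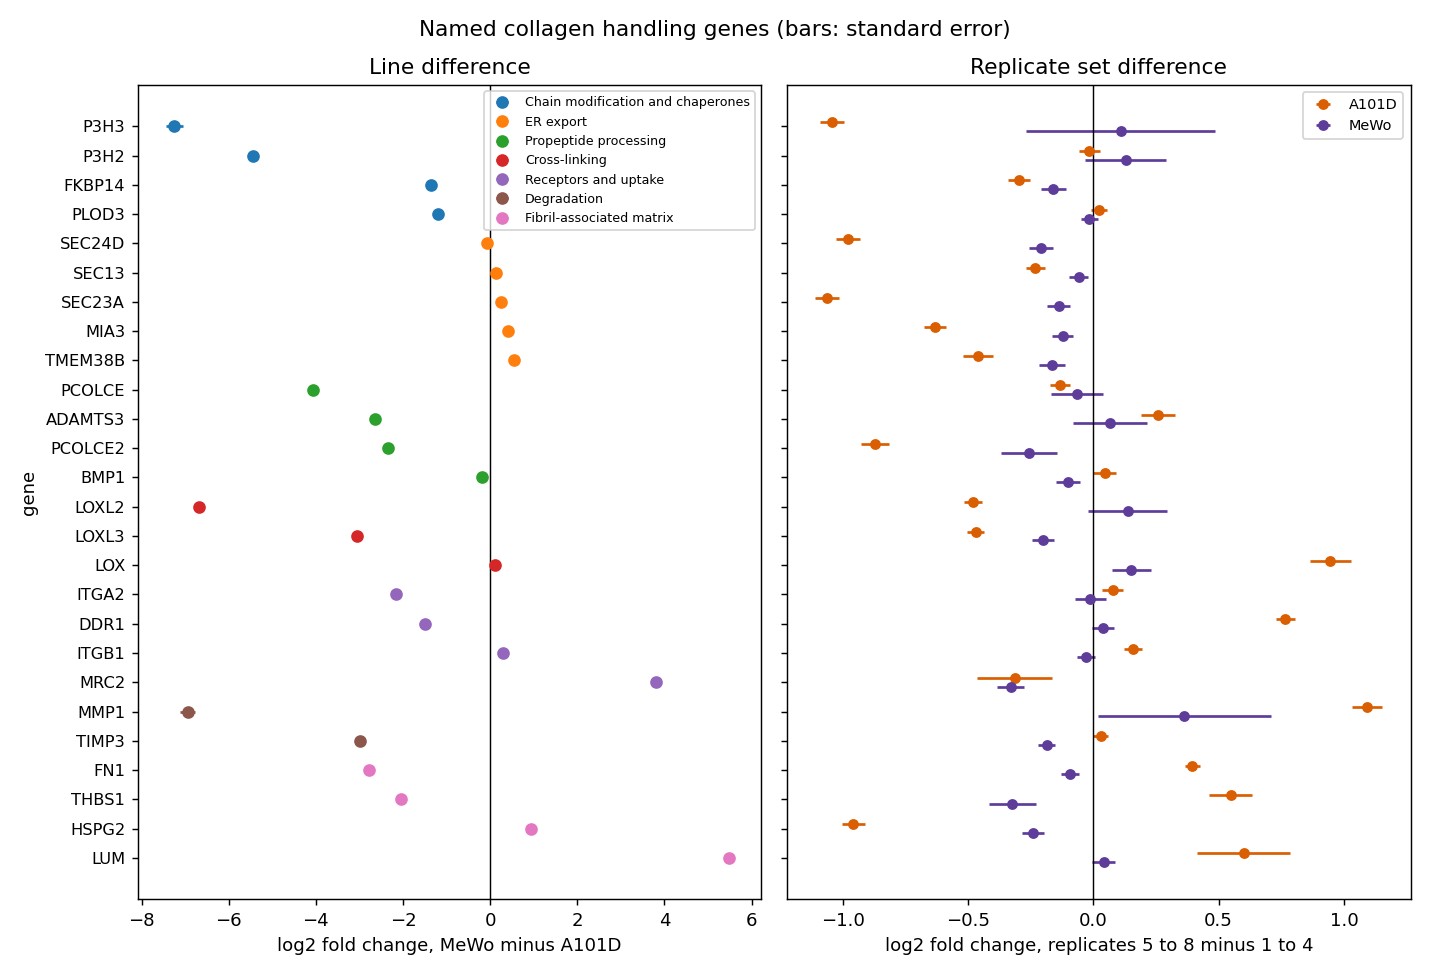
Log2 fold changes with standard errors of the named genes of collagen modification, export, processing, cross-linking, binding and degradation, for MeWo minus A101D (left) and for replicates 5 to 8 minus 1 to 4 in each line (right). P3H3, MMP1 and LOXL2 lie below -6 on the left, and LUM and MRC2 lie above 3.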

How the data were processed

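Raw gene counts of 16 libraries were used, 1 table per line, which the authors made with Trimmomatic 0.39-1, STAR 2.7.1a and featureCounts 2.0.0 on GRCh38, per the submitters' processing notes. Neither the release of the annotation nor the strand option used in counting is given in the sources used here. Each cell of the deposited tables joins a gene identifier and a whole-number count, and both were separated. Columns were matched to samples by line and replicate number in the file headers, and 0 columns were left unmatched. Of 60676 identifiers, 60357 had a symbol and 58503 a position in GENCODE v29 (GRCh38).

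Library sizes were scaled by trimmed mean of M-values (TMM; trims of 30% and 5%). A gene was tested when it reached 0.298 CPM (10 counts at the median depth) in 4 libraries and 15 counts in all. limma 3.58.1 in R 4.3.3 (voom weights, robust moderation) fitted 4 groups (line and replicate set), with Benjamini-Hochberg adjustment over 21569 genes, a threshold of 0.05 and two-sided tests. A count-model test had been planned for columns that pass as counts. Because cells are joined, limma with voom took its place as planned. The step was tested on simulated counts. The line contrast averages the sets of each line. SE are those of the moderated fit.

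The members, the gene lists and the sets were chosen with earlier results of these data known. Library values in at least 1 line are given for most collagens with a group mean of at least 10 CPM or called between sets. They are also given for the 3 largest line differences. Most others have ranges, medians, line means or counts, and so do COL4A3, COL4A5, COL5A3, COL7A1, COL10A1 and COL25A1. From each list of collagen handling genes the text names the most abundant gene, the 2 largest line differences and the largest difference in each set contrast, among called genes with a group mean of at least 10 CPM. Levels between genes are per kb of exon (GENCODE v29). With the longest transcript's length the chain ratios kept their direction but not their size. For example, COL1A2 was then 1585 times COL1A1 in A101D replicates 1 to 4. Intervals of count ratios are exact at 95% and cover counting error only. Alternatives were other scalings, filters, thresholds and tests, the lines without sets, the replicate number as a block, and leaving out each library, and a filter in 8 libraries was added after the data were seen. Promoter entries (RefSeq, GRCh38.p14) matched 32 of 44 members. COL1A1, COL1A2, COL2A1, COL3A1, COL5A2, COL6A1, COL6A5, COL8A1, COL9A3, COL14A1, COL20A1 and COL22A1 were not matched. Sequence from chromosome 8 was not used here.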

Additional observations from a re-analysis of the deposited data

Results flagged for a closer look

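In 142 collagen gene and group combinations of 4 libraries with at least 10 counts on average, 11 had a library whose gap to its neighbour took up more of the group's range than Dixon's critical value allows. Chance gives about 7.1. In A101D replicates 5 to 8, library 8 stood apart for 3 genes, high for COL4A5 (26.4 CPM, the others 24.1 to 24.3) and COL8A1 (87.7, the others 80.1 to 80.4) and low for COL6A1 (274.7, the others 297 to 300.1). In the same group library 5 was low for COL9A3 (423.8 CPM, the others 468 to 473) and library 7 high for COL10A1 (0.63, the others 0.30 to 0.35). In A101D replicates 1 to 4, library 3 was high for COL4A3 (1.53 CPM, the others 1.11 to 1.16) and library 2 low for COL7A1 (45.3, the others 58.6 to 60.2). In MeWo replicates 1 to 4, library 4 was high for COL5A1 (5.87 CPM, the others 3.86 to 3.95) and COL18A1 (124.6, the others 110.5 to 112.5), library 2 was high for COL4A1 (298.8, the others 287.8 to 289), and library 3 was low for COL2A1 (0.318, the others 0.644 to 0.701).

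The difference between the sets differed between the lines for 20 of the 41 tested collagen genes by the interaction term of the limma fit. Of all tested genes 48.5% did, so the collagen share lies near that of all genes. Values are log2, MeWo minus A101D. It was positive for COL8A2 (1.56), COL5A1 (1.56), COL9A1 (1.44), COL10A1 (0.97), COL27A1 (0.59), COL9A3 (0.49), COL18A1 (0.37), COL5A2 (0.34), COL4A5 (0.28) and COL4A1 (0.14). It was negative for COL21A1 (-3.40), COL3A1 (-3.03), COL24A1 (-2.35), COL28A1 (-2.11), COL6A3 (-2.04), COL17A1 (-1.77), COL13A1 (-1.58), COL11A2 (-1.07), COL14A1 (-0.76) and COL25A1 (-0.55). COL4A1, COL4A5, COL9A1, COL10A1 and COL13A1 were each lost from this list when at least 1 single library was left out, and COL4A1 and COL4A5 also with each of the 3 other scalings.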

How the results depend on the processing

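The line difference held for 40 genes with TMM, median-of-ratios, upper-quartile and total-count scaling, with limma-trend and without any 1 library (40 to 40). A test against a 2-fold change called 24. Without the set term 38 were called, COL5A1 and COL6A3 being lost. In the A101D sets 27 to 33 genes were called when 1 library was left out, and 7 against a 2-fold change. In the MeWo sets the 4 calls became 2 with upper-quartile factors and 2 with total counts (COL4A2 and COL19A1 lost), 1 at a threshold of 0.01, 0 without a low-count filter and 0 against a 2-fold change, and 2 to 5 when 1 library was left out. The cause was not tested. The difference of the sets between the lines was called for 20 genes, for 18 to 21 when 1 library was left out, and for 4 against a 2-fold change. With median-of-ratios factors, upper-quartile factors or total counts it stayed at 20, but COL4A1 and COL4A5 were lost and COL6A1 and COL19A1 gained. In the A101D sets the sign turned for P3H2 (0.12 with upper-quartile factors, 0.15 with total counts), PCOLCE (0.0035 and 0.0273), COL4A5 (0.0156 and 0.0394) and, with total counts, COL19A1 (0.11), where these scalings moved the median of all tested genes from -0.05 to 0.08 and 0.11. The summed collagen ratio of A101D to MeWo was 3.68 in counts and 4.02 per kb. With the replicate number as a block, the line calls stayed at 40 and the calls for the difference of sets between lines fell to 18, without COL9A1 and COL13A1. Same-numbered libraries of the lines correlated at -0.02 to 0.077 over all tested genes after group means were removed. The best other number of the same set reached 0.0046 to 0.0583. Such low values over all genes cannot show whether same-numbered libraries were handled together. The 2 sets of a line share no numbers, so their contrasts have no paired fit. The planned count-model tests were not run.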
